A study of Mus musculus with 10 samples.

Results

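Amacrine cells that carried mRNA of Nos1, the neuronal nitric oxide synthase, were taken from single-cell profiles of mouse retina. A cell was counted when it had at least 2 Nos1 UMIs (unique molecular identifiers, each counting 1 captured RNA molecule), at least 1 UMI of Gad1 or Gad2, the enzymes that make GABA, and no UMI of Slc6a9, the glycine transporter that marks glycinergic amacrine cells. The rule found 146 Nos1-gated cells among 32523 cells in 10 libraries. They were set beside 15976 comparison cells of the same libraries, which had at least 2 UMIs of Gad1 plus Gad2, no Slc6a9 and no Nos1. The cells were thus chosen by their measured counts of Nos1, Gad1, Gad2 and Slc6a9, and the levels of these 4 genes are given as a description with no test.

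All libraries came from retinas of Chx10-cre-GFP mice at postnatal day 19, a strain whose Cre and GFP transgene is driven by the Chx10 promoter, which is active in bipolar cells, and every cell compared here shares that genotype and age. Per the labels' protocols, sorted cells lacked GFP, CD133 and CD73 and took up Calcein Blue, a dye for living cells, so any amacrine type that carries one of those labels would be lost. Libraries were made with droplet 3′ chemistry. The labels name 3 batches, with library 1 in batch 1, libraries 2 to 6 in batch 2 and libraries 7 to 10 in batch 3. Whether each library is a different animal is not in the labels, so library-to-library spread may be technical in part or in all. Each p-value and SE comes from a fit that takes 1 spread per gene for both sides together and moderates it over genes. They can be narrower than the spread among the sums of Nos1-gated cells, which rest on few cells each. The ranges over libraries show that spread.

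Nitric oxide is a gas that neurons make on demand. Nos1 is switched on by calcium and calmodulin and turns arginine into citrulline and nitric oxide, which crosses membranes and activates soluble guanylate cyclase, the enzyme that makes cGMP, in the cell itself or in its neighbours. In the retina, Nos1-containing amacrine cells are wide-field GABAergic interneurons that fall into more than one type, and nitric oxide is known for changing coupling between cells through cGMP. Galanin, the product of Gal, is a secreted neuropeptide named with these cells as a marker.

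Nos1 lies on chromosome 5 (GRCm38, 117781032 to 117958840, plus strand) and Gal on chromosome 19 (3409915 to 3414544, minus strand). The windows around 1 RefSeq start of each gene (build GRCm38.p6, 250 bases before to 50 bases after) are printed because the report turns on where these 2 mRNAs do and do not occur together. The Nos1 window covers chr5:117866589-117866888 on the plus strand and begins inside the gene as GENCODE draws it, so it is the start of a shorter transcript. The Gal window covers chr19:3414495-3414794 and is printed along the minus strand. Capitals mark TGACG, the half-site of the cAMP response element, or CGTCA where the match is on the other strand.
Nos1: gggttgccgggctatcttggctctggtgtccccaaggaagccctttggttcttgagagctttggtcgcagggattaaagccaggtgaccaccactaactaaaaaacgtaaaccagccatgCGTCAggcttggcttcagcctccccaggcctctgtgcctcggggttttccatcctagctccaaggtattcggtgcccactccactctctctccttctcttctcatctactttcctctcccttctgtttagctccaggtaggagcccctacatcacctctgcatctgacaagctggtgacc
Gal: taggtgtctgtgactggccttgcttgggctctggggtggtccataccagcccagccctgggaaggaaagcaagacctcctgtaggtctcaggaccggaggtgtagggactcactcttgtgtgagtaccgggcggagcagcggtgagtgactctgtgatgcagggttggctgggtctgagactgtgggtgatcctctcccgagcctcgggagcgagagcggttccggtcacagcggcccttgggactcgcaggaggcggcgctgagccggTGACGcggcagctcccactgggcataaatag
Each window held 1 half-site, whose first base lay 130 bases before the start in Nos1 and at base 20 after it in Gal. The motif, searched on both strands, occurred in 6837 of 32851 RefSeq windows of the same length (20.8%). Neither window held the full element TGACGTCA (1.79% of windows) or the T-box motif TCACACC and its reverse GGTGTGA (3.98% of windows). G and C made up 54.7% of the Nos1 window and 63.3% of the Gal window, against a median of 52.7%.

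Nos1-gated cells were rare in every library. They made up 0.486% ± 0.196 of all cells (SD, n = 10), from 0.247% in library 5 (11 of 4454 cells, exact 95% interval 0.123 to 0.441%) to 0.947% in library 1 (9 of 950 cells, 0.434 to 1.79%). Libraries held 7 to 25 of them. Within batches the mean share was 0.421% ± 0.116 (n = 5) in batch 2 and 0.452% ± 0.134 (n = 4) in batch 3, and batch 1 held only library 1. The intervals cover counting error only.

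**Figure D1:**
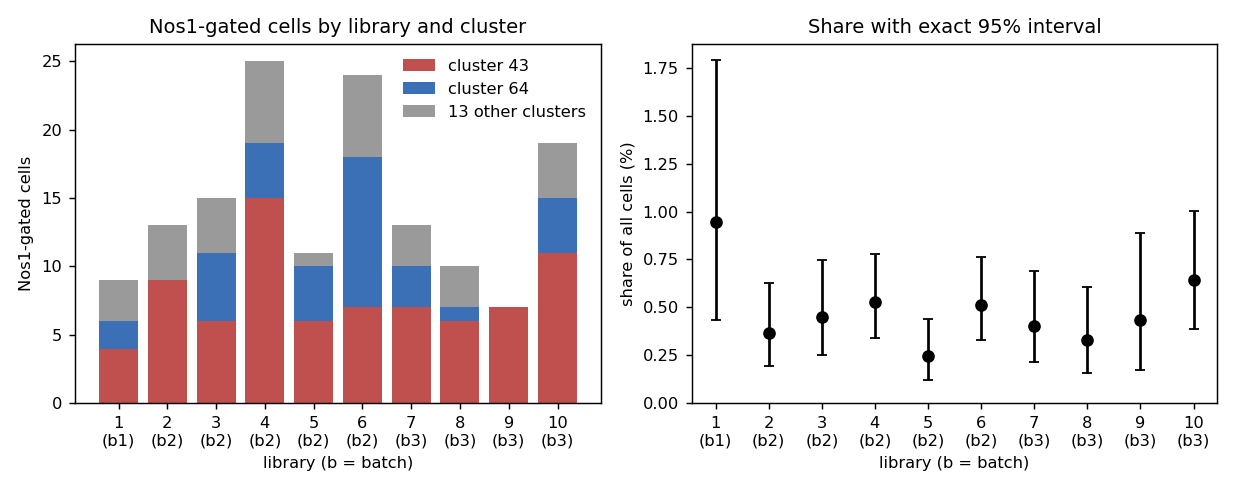
Left, number of Nos1-gated cells in each library, split by the cluster they fell in (cluster 43, cluster 64 or any other cluster); right, their share of all cells in percent, with bars for the exact 95% binomial interval. Cluster 43 held 4 to 15 of these cells in every library, whereas libraries 2 and 9 had none in cluster 64.

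The gate favoured deeply sampled cells. The median Nos1-gated cell had 13751 UMIs and the median comparison cell 5334.5 UMIs. Libraries held 6302659 to 26028492 UMIs in all. When every cell was thinned to 2000 UMIs before the gate, the mean share fell from 0.486% to 0.111%, and requiring at least 3 Nos1 UMIs gave 0.275%. Of 31586 distinct barcodes, 923 occurred in 2 or more libraries; 15 Nos1-gated cells carried such a barcode, and no 2 Nos1-gated cells shared one.

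Nos1 UMIs were rare in a cell class used as background. Among 4556 glycinergic cells, gated on at least 2 Slc6a9 UMIs and no Gad1 or Gad2, 21 cells had a Nos1 UMI (0.461%) and 1 cell had 2 or more (0.0219%, exact interval 0.000556 to 0.122%), at a median of 3664 UMIs per cell. Among 16415 Gad-gated cells, at a median of 5411 UMIs, the shares were 2.67% and 0.883%. Those with 2 or more are Nos1-gated by the rule, so the second share describes the selection. In the 16143 Gad-gated cells outside clusters 43 and 64, described below, the shares were 1.62% and 0.211%, at a median of 5370 UMIs.

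All 32523 cells were also grouped into 82 clusters with Nos1, Gal, the gate genes and every listed gene left out of the clustering. The Nos1-gated cells gathered in few of them. Cluster 43 held 78 of the 146 cells (53.4%), cluster 64 held 34 (23.3%), and the remaining 34 were spread over 13 clusters, with 16 of them in cluster 1. Cluster 43 had 284 cells, of which 60.2% had a Nos1 UMI and 33.5% had 2 or more. Cluster 64 had 121 cells, of which 73.6% had a Nos1 UMI and 64.5% had 2 or more. Summed over all cells of a cluster, Nos1 stood at 126 CPM (UMIs of the gene per 1000000 UMIs) in cluster 43 and 618 CPM in cluster 64, with a median of 2.29 CPM over the 82 clusters and a highest value elsewhere of 47.4 CPM. Clusters 43 and 64 made up 0.851% ± 0.182 and 0.360% ± 0.135 of the cells (SD, n = 10).

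The Slc6a9 rule removed part of both clusters. Of 234 cells with at least 2 Nos1 UMIs, 86 had a Slc6a9 UMI and 3 had no Gad1 or Gad2. The removed cells included 17 of cluster 43 and 43 of cluster 64, so more cluster 64 cells with Nos1 were removed than kept. The 43 removed cells of cluster 64 had Slc6a9 at 158 CPM and Gad1 plus Gad2 at 1113 CPM, against 1586 CPM of Slc6a9 in glycinergic cells. In all 43 the Gad count exceeded the Slc6a9 count. Their Nos1 level was 740 CPM, against 770 CPM in the 34 cells kept, and 29 of the 43 had Gal mRNA.

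The threshold of 2 UMIs cut through a gradient of cluster membership. Among cells that met the other gates, 63 of the 315 cells with 1 Nos1 UMI were in cluster 43 and 7 in cluster 64, and 245 were elsewhere (77.8%). Just inside the threshold, 31 of 64 cells with 2 UMIs were in cluster 43 and 8 in cluster 64. Every cell with 4 or more Nos1 UMIs fell in 1 of the 2 clusters. At 4 or 5 UMIs, 17 of 26 cells were in cluster 43; at 10 or more UMIs, 8 of 12 were in cluster 64. The highest count was 17 Nos1 UMIs in a cell of cluster 43 and 42 in a cell of cluster 64.

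**Figure D2:**
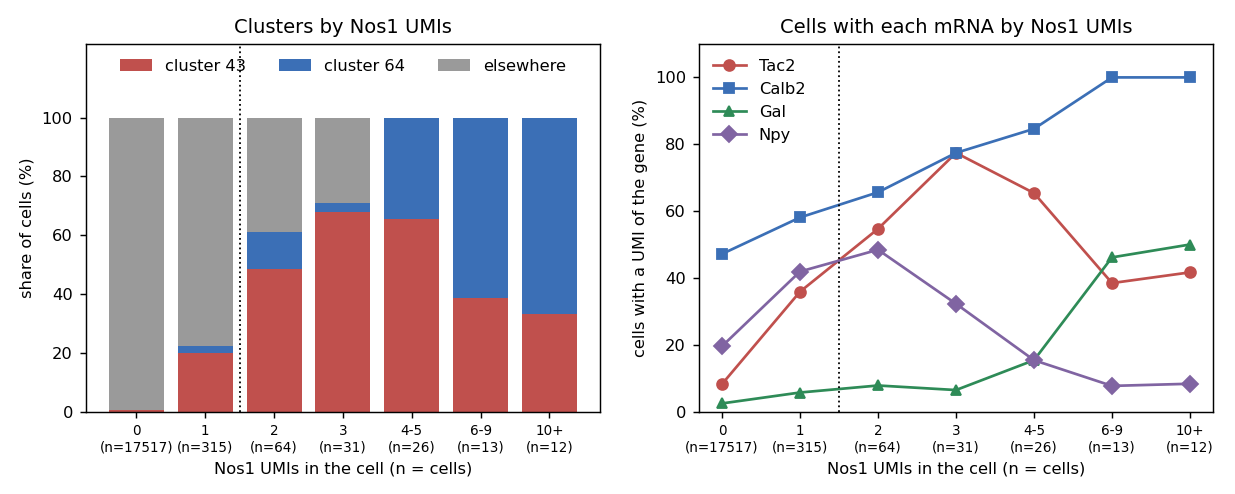
Cells that met the Gad and Slc6a9 gates, by their number of Nos1 UMIs (x axis; the dotted line is the threshold). Left, share of cells in cluster 43, cluster 64 or elsewhere, in percent; right, share with at least 1 UMI of Tac2, Calb2, Gal or Npy, in percent. Tac2 was found in 77.4% of cells with 3 Nos1 UMIs and 41.7% with 10 or more, whereas Gal went from 6.45% to 50%.

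The label "nitrergic" holds for the gene the rule used, but Gal did not mark most of the cells. Gal mRNA was found in 23 of the 146 cells, of which 19 were in cluster 64, 2 in cluster 43 and 2 elsewhere. Per library, over the 8 libraries with at least 10 Nos1-gated cells, Gal ranged from 5.11 to 94.9 CPM in Nos1-gated cells and from 3.75 to 12.3 CPM in comparison cells. In turn, of 470 cells that met the Gad and Slc6a9 gates and had a Gal UMI, 23 (4.89%) were Nos1-gated. Of 19 such cells with at least 5 Gal UMIs, 6 were Nos1-gated, and those 6 were all in cluster 64.

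The 8 amacrine markers, which include the gate genes Gad1, Gad2 and Slc6a9, summed to 2042 to 2977 CPM per library in Nos1-gated cells and 4026 to 5227 CPM in comparison cells, and Slc6a9 was at 0 on both sides by the rule. Slc32a1, the vesicular GABA transporter, stood at 559.8 CPM in Nos1-gated and 669 CPM in comparison cells. Pax6, a homeobox factor of amacrine cells, stood at 589 against 1000.2 CPM, with 293 CPM in cluster 43 and 1013 CPM in cluster 64. Tfap2b, another factor of amacrine cells, stood at 436 against 1198 CPM, with 503 CPM in cluster 43 and 57.6 CPM in cluster 64. The 11 rod markers summed to 74.8 CPM in Nos1-gated and 135 CPM in comparison cells, with 4 of 11 at 0 in the former. The 10 ganglion cell markers, which include neurofilament and tubulin genes that amacrine cells also use, summed to 1094 to 1502 CPM per library in Nos1-gated cells and 655 to 747 CPM in comparison cells. The 10 Müller glia markers summed to 503 to 833 CPM against 1107 to 1470 CPM. The part of these markers in the results below was not tested. Of the 82 clusters, 4 carried bipolar or Müller glia markers; they held 521 cells, and none was Nos1-gated.

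The Nos1-gated cells of the 2 clusters had different peptides, transcription factors and calcium-binding proteins. A cluster is drawn from the genes of its cells, so these differences are a description with no test. In cluster 43, Tac2, the precursor of the tachykinin neurokinin B, had a median of 6368.5 CPM over 10 libraries (lowest 4065, highest 8457). In cluster 64, over the 6 libraries with at least 3 of its cells, Tac2 had a median of 0 and a highest value of 11.7 CPM. The libraries of the 2 clusters did not overlap.

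Eomes, a T-box transcription factor, had a median of 454 CPM in cluster 43 and was at 0 in all 6 libraries of cluster 64. Adra1b, an alpha-1 adrenergic receptor, had a median of 477 CPM against 0. Drd5, a dopamine receptor, stood at 128 CPM against 0. C1ql1, a secreted C1q-like protein that acts at synapses, had a median of 3785.5 CPM against 71.3 CPM. The libraries of the 2 clusters did not overlap in these 4 picked genes, but how many of all genes did so was not counted.

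Cluster 64 had its own set. Calb2, the calcium-binding protein calretinin, had a median of 3333 CPM in its Nos1-gated cells (2664 to 3736) and 328 CPM in those of cluster 43 (137 to 1083). Pcp4, a small protein that binds calmodulin, stood at 8268 against 1276 CPM. C1ql3, a relative of C1ql1, stood at 754 against 19.0 CPM. Rhox5, an X-linked homeobox gene, stood at 206 against 0 CPM. The libraries of the 2 clusters did not overlap in these 4 genes either, again without a count over all genes. Cxcl13, a chemokine gene chosen after its values were seen, averaged 107 ± 171 CPM over the 6 libraries (SD) and was at 0 in 1 or more of them.

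Among Nos1-gated cells, Gal and a galanin receptor gene differed in opposite directions between the clusters. Gal had a median of 151 CPM in cluster 64 (56.8 to 259) and 0 in cluster 43 (0 to 28.0). Galr1, a galanin receptor, had a median of 16.8 CPM in cluster 43 (9.86 to 25.5) and was at 0 in all 6 libraries of cluster 64. It had only 23 UMIs over the Nos1-gated cells of cluster 43, so each library value rests on very few UMIs. A Galr1 UMI was found in 25.6% of the Nos1-gated cells of cluster 43 and 0.0689% of comparison cells, which were shallower. With every cell thinned to 2000 UMIs the shares were 1.28% of 78 cells and 0.0144% of 13894 cells. Too few thinned cells held a Galr1 UMI to compare the sides at equal depth. A Galr1 UMI was found in 0 of 34 cells of cluster 64 before thinning. This allows a share of up to 8.82% of cells with a UMI and sets no limit on the share that express the gene.

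The 34 Nos1-gated cells outside both clusters were a mixed set from 13 clusters, summed together here. All had 2 or 3 Nos1 UMIs. Npy, the precursor of neuropeptide Y, stood at 2485 CPM in this sum. It stood at 54.5 CPM in cluster 43, 9.60 CPM in cluster 64 and 458 CPM in comparison cells. Over all cells of a cluster, Npy stood at 430 CPM in cluster 1, 2984 CPM in cluster 38 and 7167 CPM in cluster 37. These clusters held 16, 4 and 2 of the 34 cells. In the 34 cells Bhlhe22, a basic helix-loop-helix factor, stood at 957 CPM, Six3, a homeobox factor, at 1132 CPM and Slit2, an axon guidance ligand, at 432 CPM. In comparison cells these genes stood at 342, 553 and 136 CPM. Cluster 1, which held 16 of the 34 cells, had 1396 cells, of which 6.30% had a Nos1 UMI (exact interval 5.09 to 7.71%) and 1.5% had 2 or more, at a median of 6678.5 UMIs per cell. These shares lay above those of glycinergic cells given earlier, at a greater depth.

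Nos1-gated cells were then tested against the comparison cells of the same libraries. The 8 libraries with at least 10 Nos1-gated cells held 130 of the 146; UMIs were summed per library and side and tested with edgeR's quasi-likelihood test, with the library as a block and Benjamini-Hochberg adjustment. Of 11542 genes tested, 2751 passed an adjusted p of 0.05 (23.8%), with 1228 higher (10.6%) and 1523 lower (13.2%) in Nos1-gated cells. The median log2 fold change of all genes was -0.09. With DESeq2, 1188 were higher and 913 lower, so in that test more genes were higher than lower. With a minimum of 5 cells per side and library, 10 libraries entered and 2924 genes passed, 1442 higher and 1482 lower. With that minimum and both sides limited to cells of at least 10000 UMIs, 2056 passed, 1087 higher and 969 lower.

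Among genes with a mean of at least 30 CPM on the higher side and the same direction in every library, the 12 largest rises included Tac2, Eomes and Adra1b. Tac2 ranged over 8 libraries from 2482 to 6488 CPM in Nos1-gated cells, with a median of 4565 CPM, and from 85.5 to 135 CPM in comparison cells. The groups did not overlap, and the log2 fold change was 5.25 ± 0.09 (SE; adjusted p = 2.4e-108). How many of all genes had groups without overlap was not counted. Here and below, a lack of overlap only describes the values of a gene. Eomes rose by 4.89 ± 0.14 and Adra1b by 4.85 ± 0.15 on the log2 scale, each higher in 8 of 8 libraries. Mc4r, a melanocortin receptor, rose by 4.76 ± 0.33. The largest rises also included Mustn1, Myo1a, Cdhr1, Gpx3, Atp6ap1l, Itm2a and Chst15, at 3.55 to 5.56. Summed over the Nos1-gated cells of cluster 64, 9 of these 11 genes had fewer than 3 CPM. In comparison cells, Mustn1, Myo1a, Mc4r and Atp6ap1l stood at only 1.02 to 1.92 CPM. These genes passed the filter on low counts through the Nos1-gated side, where they were high. Their rises carry that selection and are a description.

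By the same rule, the largest falls included peptides of other amacrine cells. Vip, the precursor of vasoactive intestinal peptide, had a median of 4.57 CPM (0 to 35.6) in Nos1-gated cells and 400 CPM (324 to 590) in comparison cells, a fall of 5.69 ± 0.19 on the log2 scale. The groups did not overlap. Cck, the cholecystokinin precursor, fell by 3.06 ± 0.24, and Cbln1, a secreted synapse organiser, by 4.46 ± 0.45. Crybb3, Tmem114, Tpbg, Lamp5, Igfbp4, Fam19a1 and Gm2694 fell by 2.94 to 3.70.

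Genes that supply or hold nitric oxide synthase were tested as a list. Each list count is set beside the shares over all genes, 10.6% higher and 13.2% lower. Of 29 genes, 21 passed the filter on low counts; 8 were higher, 4 lower and 9 did not pass the test, with a median log2 change of 0.15. Slc7a1, a transporter that imports arginine, ranged from 6.74 to 32.3 CPM in Nos1-gated cells (median 18.4) and from 3.69 to 5.32 CPM in comparison cells (median 4.47). It rose by 2.16 ± 0.35 on the log2 scale (adjusted p = 8.2e-08). The groups did not overlap, but Slc7a1 had only 42 UMIs over all Nos1-gated cells. The lowest library values thus rest on very few UMIs, and the lack of overlap says little. Its level was close to even between the clusters, at 22.6 CPM in cluster 43 and 26.4 CPM in cluster 64. In the 34 other Nos1-gated cells it was 6.04 CPM (2 UMIs), near the 4.65 CPM of comparison cells.

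Dynll1, a dynein light chain that also binds Nos1, had a median of 1008 CPM (897 to 1435) against 545 CPM (513 to 638) and rose by 0.97 ± 0.06 (adjusted p = 2.9e-33), with no overlap. Ass1 and Asl, which remake arginine from citrulline, rose by 0.85 ± 0.17 and 0.55 ± 0.19. Pts, an enzyme that makes the cofactor tetrahydrobiopterin, rose by 0.82 ± 0.14. Calm2, which encodes calmodulin, rose by 0.43 ± 0.05. Rasd1, a small GTP-binding protein tied to nitric oxide signalling, rose by 0.83 ± 0.28 and was higher in 5 of 8 libraries.

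Ddah1, which breaks down an inhibitor of nitric oxide synthase, fell by 0.42 ± 0.09 (adjusted p = 0.00013), with overlapping groups and 5 of 8 libraries lower. Its level split by cluster: 87.2 CPM in the Nos1-gated cells of cluster 43, 511 CPM in those of cluster 64 and 260 CPM in comparison cells. Without the cells of cluster 43, at a minimum of 5 cells per side and library, Ddah1 was higher by 0.62 on the log2 scale (adjusted p = 3.8e-06). Qdpr, which recycles the cofactor, fell by 0.53 ± 0.11. Adh5, which removes nitrosothiols, fell by 0.39 ± 0.14. Nos1ap, an adaptor that binds Nos1, did not pass the test (-0.27 ± 0.22, adjusted p = 0.42); it stood at 7.78 CPM in cluster 43 and 74.4 CPM in cluster 64. In the same setting without cluster 43, the log2 changes of Pts (-0.19), Asl (-0.089) and Rasd1 (-3.35) were negative, and only that of Rasd1 passed the test among these (adjusted p = 0.013). DESeq2 did not call Rasd1 or Adh5, and calls were lost for Rasd1 without library 8 or 10, for Asl without library 2, 3, 6 or 10 and for Adh5 without library 4, 7, 8 or 10.

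The cGMP list, downstream of nitric oxide, had 16 of 23 genes tested, with 2 higher, 6 lower and 8 not passing, and a median log2 change of -0.25. Both main subunits of soluble guanylate cyclase fell. Gucy1a3, the alpha-1 subunit, had a median of 267 CPM (104 to 431) in Nos1-gated cells and 641 CPM (583 to 725) in comparison cells. The groups did not overlap, and it fell by 1.23 ± 0.08 on the log2 scale (adjusted p = 7.7e-30). Gucy1b3, the beta-1 subunit, had a median of 89.3 CPM (71.5 to 139) against 192 CPM (171 to 217) and fell by 1.05 ± 0.11, again with no overlap. Gucy1a2, a second alpha subunit, fell by 3.10 ± 1.0, from a level of 3.56 to 7.49 CPM in comparison cells. It had 2 UMIs over all Nos1-gated cells and passed the filter on low counts through the comparison side.

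Gucy1a3 also split by subset, at 104 CPM in cluster 43, 425 CPM in cluster 64 and 737 CPM in the 34 other Nos1-gated cells. Pde3a, a cyclic nucleotide phosphodiesterase, fell by 2.15 ± 0.17, Pde1c by 1.18 ± 0.27 and Prkg1, a cGMP-dependent kinase, by 1.56 ± 0.44. Pde2a, a phosphodiesterase that cGMP stimulates, rose by 1.97 ± 0.26 with no overlap, and Pde11a by 1.58 ± 0.35. Pde2a stood at 49.8 CPM in cluster 43, 9.60 CPM in cluster 64 and 9.25 CPM in comparison cells.

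**Figure D3:**
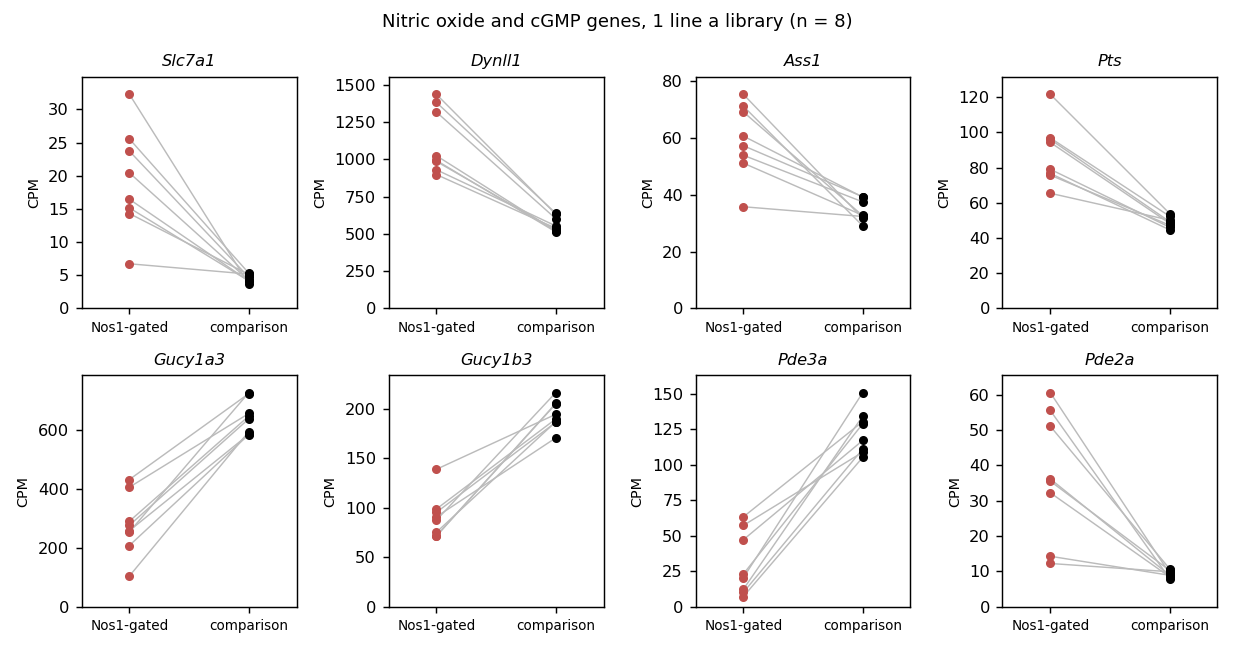
CPM of 8 nitric oxide and cGMP genes in Nos1-gated cells (left of each panel) and comparison cells (right), 1 point and line for each of 8 libraries. The groups overlapped for Ass1 and not for the other genes shown, which were picked from the 2 lists. For Slc7a1 the values rest on few UMIs (42 over all Nos1-gated cells). Gucy1a3, Gucy1b3 and Pde3a were lower in Nos1-gated cells in all 8 libraries.

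Among neuropeptide precursors, 13 of 29 were tested besides Gal, which is described above; 2 were higher, 6 lower and 5 did not pass, with a median log2 change of -0.25. Tac2 and Grp, the gastrin-releasing peptide precursor (0.92 ± 0.25), rose. Cartpt, the precursor of CART peptides, fell by 2.55 ± 0.14; its level in Nos1-gated cells was 89.7 to 552 CPM in 6 libraries but 1881 CPM in library 8 and 2289 CPM in library 7. Tac1, the substance P precursor, fell by 0.61 ± 0.11 and Ghrh, the growth hormone-releasing hormone precursor, by 4.19 ± 0.83. Ghrh had 1 UMI over all Nos1-gated cells, so it passed the filter on low counts through the comparison side. Npy fell by 0.25 ± 0.09 (adjusted p = 0.035). Without cluster 43, at a minimum of 5 cells, the same edgeR test had it higher by 0.94 (adjusted p = 5.5e-20). Its log2 change was also positive, without a call, with cells of at most 20000 UMIs at that minimum (0.20). Without the Slc6a9 rule it was 0.021, again without a call. DESeq2, run on the main comparison, called neither Tac1 nor Npy. As given above, the Npy level of Nos1-gated cells was highest in the mixed set outside both clusters. In the peptide-processing list, 3 of 15 rose and 6 fell; the proteases' inhibitor gene Pcsk1n rose by 0.62 ± 0.06 and the convertase Pcsk2 fell by 1.35 ± 0.16. Of 13 peptide receptor genes tested, 3 rose and 4 fell. Galr1, at 6.13 ± 0.61, passed the filter on low counts through the Nos1-gated side alone, with 23 UMIs there and 12 in all comparison cells.

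Transcription factor genes were mostly lower: of 65 tested, 4 rose, 40 fell and 21 did not pass, with a median log2 change of -0.86. Foxp1, a forkhead factor, rose by 1.58 ± 0.13, next to Eomes, while Sox2, which marks starburst cells, fell by 4.56 ± 0.78. The cholinergic genes Slc18a3 and Slc5a7, carried by starburst amacrine cells, both fell by 4.66, and no gene rose among the 14 tested for amacrine transmitters (7 fell). Over all Nos1-gated cells, Slc18a3 had 2 UMIs, and Slc5a7 and Sox2 had 1 each. Sox2, Slc18a3 and Slc5a7 passed the filter on low counts through the comparison side. The sizes of their falls rest on those few UMIs. Of 19 GABA and glycine receptor genes, 2 rose and 11 fell, among them Gabrd, the delta subunit of the GABA-A receptor, with a fall of 2.32 ± 0.26. Of 21 acetylcholine and monoamine receptor genes, 6 rose and 6 fell, among them Drd5 (3.06 ± 0.18) and the muscarinic receptor Chrm1 (-3.47 ± 0.55). Of 29 glutamate receptor genes, 5 rose and 3 fell, beside 10.6% and 13.2% over all genes.

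Of 13 neurofilament and cytoskeleton genes, 8 rose and 2 fell. Stmn2, a tubulin-binding protein of growth cones, had a median of 1690.5 CPM (1299.9 to 2137) against 417 CPM (387 to 472) and rose by 2.02 ± 0.06, with no overlap. Gap43, a growth-cone protein, had a median of 632 CPM against 238 CPM and rose by 1.41 ± 0.07. Nefh, the heavy neurofilament, fell by 1.17 ± 0.19. Stmn2 was high in both clusters (2073 and 1509.5 CPM) and stood at 577 CPM in the other Nos1-gated cells.

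The counts of the next lists stand beside the same shares over all genes, 10.6% higher and 13.2% lower. The sodium channel gene Scn2a1 rose by 1.33 ± 0.12, within a list of sodium, calcium and HCN channel genes where 8 of 34 rose and 6 fell. Of 36 potassium channel genes, 7 rose and 13 fell; Kcnq3 rose by 2.34 ± 0.24 and the channel subunit Kcnab2 fell by 1.59 ± 0.18. Among 50 synaptic release genes, 19 rose and 13 fell; the active-zone gene Rims1 fell by 2.72 ± 0.15 and Cplx3, a complexin, by 2.17 ± 0.08. Of 90 adhesion and recognition genes, 14 rose and 33 fell. C1ql3 rose by 2.42 ± 0.15, with 646 CPM in cluster 64, 20.2 CPM in cluster 43 and 29.3 CPM in comparison cells. Of 29 calcium-binding genes, 10 rose and 8 fell, and Calb1, the calcium buffer calbindin, fell by 2.28 ± 0.19. Of 22 growth factor and receptor genes, 4 rose and 8 fell. Of 17 immediate early and stress genes, none rose and 12 fell, among them Fosb (-2.23 ± 0.22) and Jun (-1.83 ± 0.14). Jun ranged from 17.9 to 79.0 CPM in Nos1-gated cells and from 93.9 to 201 CPM in comparison cells, and the groups did not overlap.

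Cells with much Nos1 mRNA were compared with cells that barely passed the gate. The 4 libraries with at least 3 cells on each side (libraries 3, 4, 6 and 7) held 20 cells with 6 or more Nos1 UMIs and 46 with 2 or 3. Of 2139 genes tested, 83 passed (3.88%), with 25 higher (1.17%) and 58 lower (2.71%). Cluster membership and depth moved with this split. Of all 25 high cells, 16 were in cluster 64 (64%) and 9 in cluster 43; of all 95 low cells, 9 were in cluster 64 (9.47%), 52 in cluster 43 and 34 elsewhere. The median depths were 19631 and 11028 UMIs. The part of cluster and depth in the changes was not tested beyond the next count. With low cells limited to the 2 clusters, 75 genes passed.

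Calb2 stood at 2177, 2931, 2433 and 2188 CPM in the high cells of libraries 3, 4, 6 and 7 and at 299, 234, 286 and 544 CPM in the low cells. It was higher in every library, with no overlap, by 2.88 ± 0.16 on the log2 scale (adjusted p = 4.2e-16). C1ql3 was at 524, 523, 539 and 171 CPM against 49.8, 57.2, 119 and 11.8 CPM, a rise of 2.83 ± 0.27. Pcp4 rose by 1.44 ± 0.12, and so did Aldoc, a glycolytic enzyme (1.59 ± 0.15), Six6, a homeobox factor (1.67 ± 0.22), and Stxbp6, which binds release proteins (2.1 ± 0.31).

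Gap43 was at 1121, 1045, 689 and 1185 CPM in high cells against 431, 560, 384 and 544 CPM in low cells, a rise of 1.05 ± 0.14 with no overlap. The zinc-finger homeobox gene Zfhx3 rose by 1.31 ± 0.21. The falls were led by Npy (-7.63 ± 0.41), Six3 (-4.36 ± 0.34), Cartpt (-4.08 ± 0.33), Slit2 (-3.52 ± 0.49), Bhlhe22 (-2.68 ± 0.29) and Ccdc88b (-2.48 ± 0.42). Npy was at 0, 0, 11.5 and 0 CPM in high cells and at 506, 618, 949 and 1148 CPM in low cells. Tac2 fell by 0.89 ± 0.13.

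Of 7 nitric oxide synthesis genes tested in this split, 1 rose and 6 did not pass. The riser was Ddah1, at 323, 159, 390 and 581 CPM in high cells against 166, 246, 223 and 94.7 CPM in low cells, with overlapping groups and a log2 change of 0.94 ± 0.26 (adjusted p = 0.033). Dynll1 did not pass (0.09 ± 0.14). Gucy1a3 did not pass (-0.10 ± 0.20), but was higher in the high cells by 1.19 (adjusted p = 0.0026) with low cells limited to the 2 clusters. DESeq2 called 16 genes and the fit without the library block 53, and the call of Ddah1 was lost with DESeq2 and without library 6 or 7. Tac2 lost its call with the high threshold at 4 or 10 UMIs, and Bhlhe22 with low cells limited to the 2 clusters.

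Nos1-gated cells with and without Gal mRNA were compared in the 5 libraries with at least 3 cells on each side, which held 18 and 78 cells. Of 2187 genes tested, 126 passed (5.76%), with 62 higher (2.83%) and 64 lower (2.93%) in cells with Gal. Most cells with Gal belonged to cluster 64 (19 of 23) and most cells without it to cluster 43 (76 of 123). Rhox5 was at 367, 224, 134, 169 and 512 CPM in the Gal cells of libraries 3, 4, 6, 7 and 10, and at 94.8, 7.34, 5.17, 0 and 8.55 CPM in the others. The groups did not overlap, and it rose by 3.63 ± 0.46 (adjusted p = 7.0e-06). Rhox5 passed the filter on low counts through the cells with Gal, where it was high, so its rise carries that selection.

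Calb2 was at 2540.4, 3973, 3505, 3657 and 2673 CPM with Gal against 781, 187, 315, 531 and 487 CPM without it, a rise of 2.89 ± 0.24. C1ql3 rose by 2.80 ± 0.33, Gm525 by 2.43 ± 0.45, Zfhx3 by 2.23 ± 0.30, Runx1t1 by 2.1 ± 0.31 and Pcp4 by 1.90 ± 0.21. Of 6 glutamate receptor genes tested, 1 rose, Grin2b, an NMDA receptor subunit (1.07 ± 0.29), and 1 fell, Cacng3, an auxiliary subunit of AMPA receptors (-1.20 ± 0.32). Of 9 sodium, calcium and HCN channel genes, 1 rose, the calcium channel subunit Cacna2d1 (1.10 ± 0.31), and 1 fell, the subunit Cacnb3 (-1.66 ± 0.44). Of 4 GABA and glycine receptor genes, 1 rose, the glycine receptor subunit Glra2 (1.36 ± 0.33), and of 9 potassium channel genes none passed. DESeq2 called none of these 5 genes. Ddah1 was at 337, 320, 436, 994 and 223 CPM against 212, 169, 248, 79.7 and 94.0 CPM, higher in 5 of 5 libraries by 1.42 ± 0.31 (adjusted p = 0.0045). It was the 1 of 7 nitric oxide synthesis genes tested that passed, and its call was lost in batch 2 alone, with at least 2 Gal UMIs and without library 7.

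Tac2 was at 1423 CPM in the Gal cells of library 3 and at 0 in those of the other 4 libraries, and at 3286, 5118, 3247, 5962 and 6099.8 CPM in cells without Gal. It fell by 4.39 ± 0.56. Eomes fell by 3.14 ± 0.53, Adra1b by 3.70 ± 0.52, Npy by 6.66 ± 0.50 and Cartpt by 3.88 ± 0.44. Scg2, a granin that yields peptides, fell by 4.24 ± 0.38, and C1ql1 by 3.23 ± 0.36. DESeq2 called 60 genes, and raising the Gal threshold to 2 UMIs left 2 libraries and 18 genes.

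**Figure D4:**
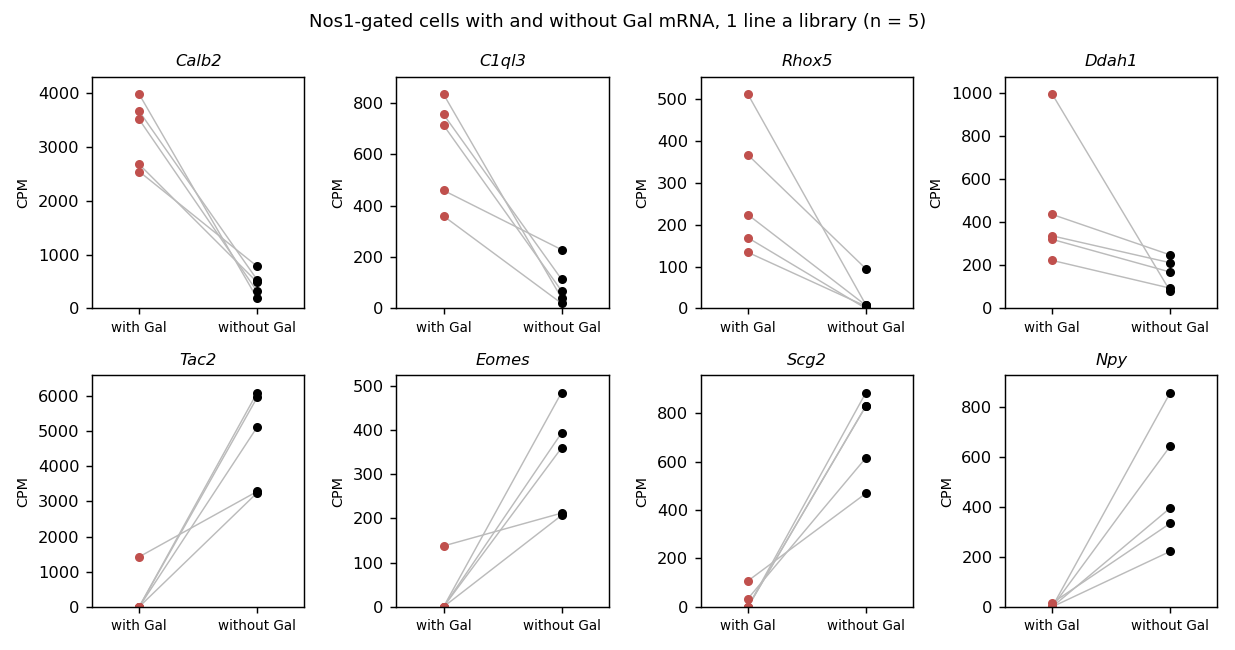
CPM of 8 genes in Nos1-gated cells with Gal mRNA (left of each panel) and without it (right), 1 point and line for each of 5 libraries. Calb2, C1ql3 and Rhox5 were higher and Tac2, Eomes, Scg2 and Npy lower with Gal, with no overlap; Ddah1 was higher in all 5 libraries with overlap.

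Cluster 43 also held cells without a Nos1 UMI. In 8 libraries, its 67 Nos1-gated cells were tested against its 83 cells that met the Gad and Slc6a9 gates and had no Nos1; this comparison was added after the data had been seen. Of 2135 genes, 64 passed (3.0%), with 30 higher (1.41%) and 34 lower (1.59%). The median cell had 17047 UMIs with Nos1 and 8127 UMIs without it over all libraries, and 29 genes passed with at least 10000 UMIs per cell.

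Arpp21, a cAMP-regulated phosphoprotein gene, had a median of 6.80 CPM (0 to 36.5) in Nos1-gated cells and 199 CPM (116 to 325) in the others, with no overlap. It fell by 4.32 ± 0.40 (adjusted p = 2.2e-08). Tshz2, a zinc-finger homeobox gene, fell by 2.44 ± 0.38 and Resp18, a secretory-granule gene, by 1.45 ± 0.16, lower in 8 of 8 libraries. Tac1 fell by 2.34 ± 0.40, with DESeq2's adjusted p at 0.25. Pam, an enzyme that finishes peptides, fell by 1.03 ± 0.17. AI593442, Stk32c and Negr1 fell by 1.18 to 1.39.

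C1ql2, another C1q-like gene, had a median of 1016 CPM (641 to 1317) against 450 CPM (150 to 735) and rose by 1.04 ± 0.15 (adjusted p = 0.00011), higher in 8 of 8 libraries with overlapping groups. C1ql1 rose by 0.64 ± 0.13, Tac2 by 0.57 ± 0.14 and Eomes by 0.70 ± 0.17. The potassium channel Kcna2 rose by 1.04 ± 0.24, and Rpp25, Mxra7, Fkbp1b and Tuba4a by 0.81 to 1.27. Of these 9 rises, DESeq2 called C1ql2, C1ql1 and Rpp25 and not the other 6. With at least 10000 UMIs per cell, 5 of the 9 were tested and C1ql2 passed, while C1ql1, Tac2, Eomes and Tuba4a did not. Of the falls, DESeq2 did not call Tac1 and Negr1, and the call of Pam was lost with at least 10000 UMIs.

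Sst, the somatostatin precursor, was chosen after its values were seen and did not pass the filter on low counts. Summed over the cluster it stood at 2.33 CPM in Nos1-gated cells and 2174 CPM in cells without Nos1. In cells without Nos1 it was at 0 in libraries 4, 8 and 9 and reached 9024 CPM in library 10. In Nos1-gated cells it was at 0 in 6 of the 8 libraries and reached 23.3 CPM in library 5. Gal in the cluster 43 cells without Nos1 stood at 105 CPM in all, and by library at 551 CPM in library 10, 116 in library 6, 105 in library 5, 46.5 in library 2 and 0 in the other 4 of the 8 libraries tested. In the Nos1-gated cells of cluster 43 it stood at 4.67 CPM, with UMIs in libraries 3 and 8. Cartpt passed at -2.66 ± 0.56, but its cells without Nos1 stood at 22540 CPM in library 2, 5813 CPM in library 5, 2402 CPM in library 8 and 12.5 to 123 CPM in the other 5, and the call was lost without library 2 (adjusted p = 0.086) or without library 8 (0.056).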

How the data were processed

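The authors deposited whole-number UMI counts per gene and cell, made with Cell Ranger 2.1.0 on mm10, per the submitters' processing notes. Libraries held 6302659 to 26028492 UMIs, which limits the precision of every count. Counts were summed per library and group of cells and tested with edgeR 4.0.16 in R 4.3.3 (TMM scaling, filterByExpr, the library as a block, quasi-likelihood test, Benjamini-Hochberg adjustment, threshold 0.05); DESeq2 1.42.0 was an alternative. In every test, a gene near 0 on 1 side passed the filter on low counts through the side where it was high. Its fold change carries that selection. The SE was derived from the log2 fold change and its F statistic, and is not the SE of the fold changes by library. A library entered the test against comparison cells with at least 10 cells a side, or 5 in the settings by depth and by cluster, where the text says so. The splits by Nos1 level, by Gal and within cluster 43 used at least 3 cells a side, a minimum chosen after the data were seen, since too few libraries met 10. Both sides of a test come from the same libraries, which is why the library is a block. The share of all genes whose groups do not overlap was not counted in any comparison.

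Cells were clustered with scanpy 1.11.5 and leidenalg 0.10.2 (2580 genes, 50 principal components, 20 neighbours, resolution 3). The deposited matrix was used as it is, with no further cell filter and no doublet caller. The fits were tested on simulated data. Named genes were those called, moved the same way in every library and with a mean of at least 30 CPM on the higher side (the 12 largest rises and 10 largest falls in the first test, 6 and 6 in the others), plus genes of the nitric oxide, cGMP and peptide lists and the leading called genes of each other list. The cells and the lists were chosen with earlier results of these data known. Results for a few genes are not reported here.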

Additional observations from a re-analysis of the deposited data

Results flagged for a closer look

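In 13 of 70 sets of library values examined, 1 of the 8 libraries stood apart from the other 7 by Dixon's 95% criterion. All 13 were levels of a gene in Nos1-gated cells. Chance alone meets the criterion in about 1 in 20 groups of continuous values. That rate does not hold for counts of a few UMIs, which most of these genes had. In each case the library that stood apart was the highest. For Vip it had 35.6 CPM (the others 0 to 6.74), for Crybb3 20.2 CPM (0 to 7.90), for Tmem114 14.3 CPM (0 to 6.58), and for Igfbp4 35.8 CPM (0 to 13.5). For Fam19a1 it had 26.3 CPM (0 to 7.15), for Gm2694 21.5 CPM (0 to 9.88), and for Prkg1 21.5 CPM (0 to 6.58). Adh5 reached 121 CPM (the others 42.9 to 71.6) and Gucy1b3 139 CPM (71.5 to 98.8). Gucy1a2 at 5.05 CPM, Ghrh and Slc5a7 at 5.11 CPM each, and Sox2 at 3.59 CPM were at 0 in the other 7 libraries. Over all Nos1-gated cells, Ghrh, Slc5a7 and Sox2 had 1 UMI each and Gucy1a2 had 2. Tmem114 had 6 UMIs, Crybb3 and Prkg1 10 each, Fam19a1 and Gm2694 11 each, Vip 14 and Igfbp4 15. Adh5 had 131 and Gucy1b3 174.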

How the results depend on the processing

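Between Nos1-gated and comparison cells, 2751 genes passed; leaving out 1 library at a time gave 2349 to 2638. The count was 1313 in batch 3 alone, and 1184 with at least 3 Nos1 UMIs, which left 3 libraries. A minimum of 5 cells per side and library gave 2924 (10 libraries); with that minimum, 1789 passed with at most 20000 UMIs per cell (9 libraries) and 992 without cluster 43 (7 libraries). Without cluster 43 the log2 changes of Adra1b (-1.17), Rasd1 (-3.35), Pts (-0.19), Asl (-0.089), Pde2a (-0.061), Pde11a (-0.56), Foxp1 (-0.28) and Drd5 (-1.33) turned negative, and those of Ddah1 (0.62) and Npy (0.94) positive. Npy was also positive with at most 20000 UMIs (0.20) and without the Slc6a9 rule (0.021). With cluster 43 alone, also at 5 cells, Grp (-0.46) and C1ql3 (-0.39) were negative.

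For high against low Nos1, 83 genes passed and DESeq2 called 16, a high threshold of 10 UMIs 20, and leaving out 1 library 54 to 83. Gucy1a3 went from -0.10 to 1.19 with low cells of clusters 43 and 64 alone. For the Gal split, 126 passed, with 60 by DESeq2, 247 without a filter on low counts, 55 in batch 2 alone, 18 at 2 Gal UMIs and 85 to 156 leaving out 1 library. Within cluster 43, 64 passed, with 18 by DESeq2, 113 without a filter, 26 in batch 2, 18 in batch 3, 29 with at least 10000 UMIs and 27 to 80 leaving out 1 library; the lowest count was without library 10, and libraries 2, 6 and 8 also lowered it by over 1.5 times (42, 41 and 34). In the high against low test, leaving out library 4 gave 55 and library 6 gave 54. The causes were not tested.

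Without the replicate block, the counts were 2458, 53, 126 and 54 for the 4 tests in this order. The mean share of Nos1-gated cells, 0.486%, was 0.275% at 3 Nos1 UMIs and 0.111% after thinning. Not run for want of libraries with enough cells were a Nos1 threshold of 6 UMIs, the range of 3000 to 10000 UMIs per cell, and batch 3 alone for high against low Nos1. The minimums of 3 and 5 cells a side, the tests by cluster and by depth of at least 10000 or at most 20000 UMIs, the test without the Slc6a9 rule and the whole comparison within cluster 43 were chosen after seeing the data. At 18 to 20 cells on the smaller side of the Gal and Nos1 splits, genes of low level could not be tested.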
